A study of Mus musculus with 2 samples.

Results

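The genes described here encode the pore-forming and auxiliary subunits of voltage-gated and related potassium, sodium, calcium and hyperpolarization-activated channels. They were chosen by name: annotated genes whose symbol begins with Kcn, Scn, Cacna, Cacnb, Cacng or Hcn followed by the letters and number of a subunit, with Kcnj8 left out, and with reads of every class of transcript model. At least 1 read fell on 56 such genes of the 14534 annotated genes with a read. Of these, 55 code for proteins and 1, Kcnq1ot1, is a non-coding RNA that the symbol rule takes in. The annotation holds 141 genes that match the rule, and 85 of them had no read in either library. The unread genes include Kcna4, Kcne2, Kcnd1, Hcn3 and Scn3b, picked here after the counts were seen because they are known from heart tissue.

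The RNA came from hearts of male B6CASTF1/J mice, first-generation hybrids between a C57BL laboratory strain and the wild-derived CAST strain, at 2 months of age. Long-read RNA sequencing, in which 1 read is meant to span 1 transcript molecule, was run on 2 µg of RNA per library, and the series holds 1 group of 2 libraries, called replicate 1 and replicate 2 after their labels. The labels name no mutation and no treatment, and the only contrast is that between the libraries. The biosample labels give 2 differently numbered animals, while another label field and the donor entry give the same one for both libraries. The p-values compare these 2 libraries and cover counting error only. They do not measure a spread between animals.

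Ion channels set the electrical cycle of heart muscle. Sodium channels start the action potential, calcium channels sustain it and trigger contraction, potassium channels of several families end it and hold the resting potential, and Hcn channels carry the pacemaker current. A pore is built from large alpha subunits, and smaller auxiliary subunits change how many channels reach the membrane and how fast they open and close. Most of these genes are spliced into several forms, and several pore transcripts are very long, which makes them a demanding case for full-length reads.

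The reads of annotated nuclear genes numbered 430251 in replicate 1 and 629896 in replicate 2, and they are the denominator of every level in CPM, the usual scaling of counts to library size. A level is not divided by transcript length, because 1 read is meant to stand for 1 molecule. Whether long transcripts were read less often than short ones was not tested, which limits comparisons of level between genes. With 0 reads a gene may still reach a level of 3 reads, equal to 6.97 CPM at the depth of replicate 1 and 4.76 CPM at that of replicate 2. Intervals on shares are exact Clopper-Pearson 95% intervals, and they and the 3-read limits cover counting error only. In whole heart, fewer cells of a type and less RNA per cell cannot be told apart.

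The channel genes took 948 reads in replicate 1 and 1415 in replicate 2, or 2203 and 2246 CPM, with a mean of 2225 ± 30.4 CPM (SD, n = 2). The reads were spread very unevenly over the genes. The 3 highest genes held 54.9% of channel reads in replicate 1 and 58.2% in replicate 2, and the 10 highest held 84.6% and 85.3%. At the other end, 30 genes had 3 reads or fewer in both libraries and 14 rested on 1 read in all. In replicate 1, 46 of the genes were read, in replicate 2, 49, and 39 in both. A further 17 were read in 1 library alone, with at most 3 reads, which is within the limit a count of 0 allows. Of the 14534 annotated genes with a read, 12700 were read in replicate 1 and 13326 in replicate 2. The median level of the 56 genes was 4.52 CPM, against 11.8 CPM over all annotated genes with a read.

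**Figure D1:**
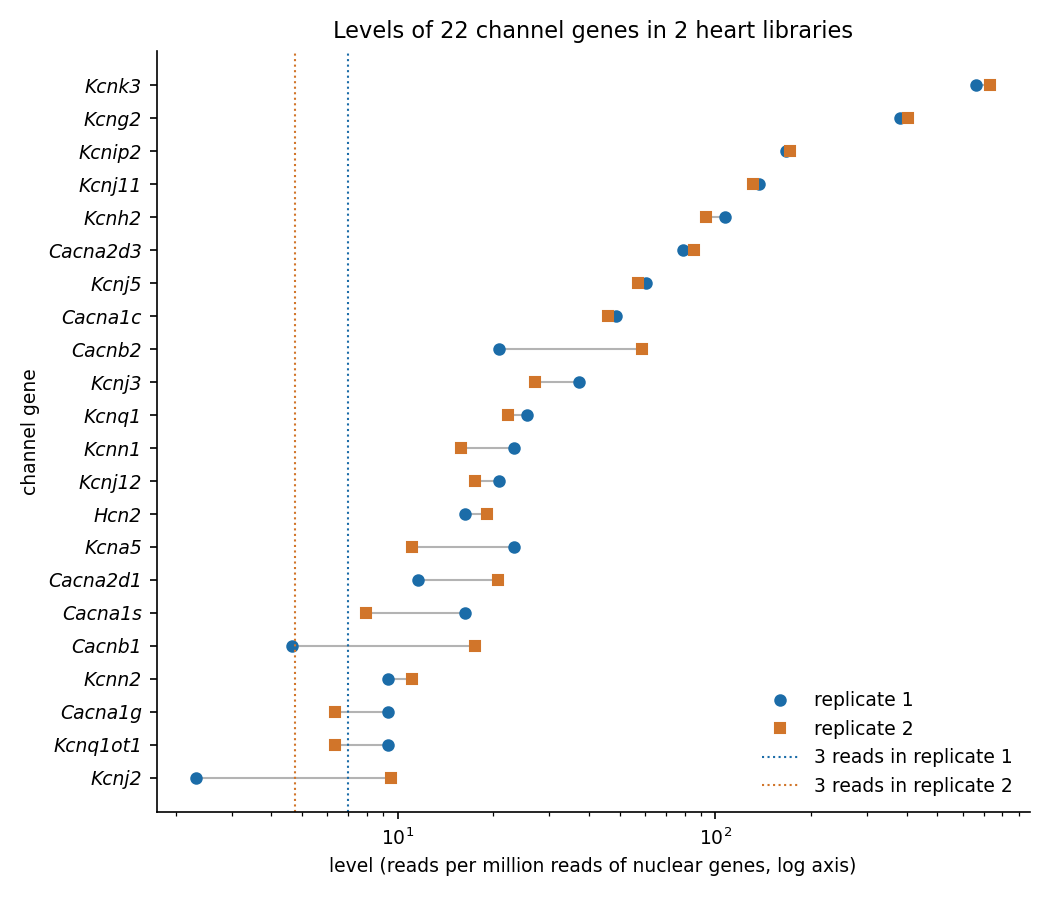
Level of 22 of the 25 highest channel genes in CPM (log axis), with 1 point per library and a dotted line at the level of 3 reads in each library. Kcnk3 stands highest at 660.1 and 732 CPM, and the gap between the libraries is widest in the genes read least and in Cacnb2.

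The 4 genes taken as markers of the set differed widely in how often they were read. Cacna1c, the pore of the cardiac L-type calcium channel, had 21 and 29 reads in replicates 1 and 2, and Kcnq1, the pore of the slow delayed rectifier, had 11 and 14. Kcnj2, a pore of the inward rectifier that holds the resting potential, had 1 and 6 reads. Kcnd2, a pore of the transient outward current, had 0 and 1. All 4 were therefore detected, but Kcnj2 in replicate 1 and Kcnd2 in both libraries lay within the 3-read limit.

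Among the potassium channel pores, Kcnk3 led by a wide margin. It encodes TASK-1, an acid-sensitive tandem-pore channel that passes a background current. It had 284 reads in replicate 1 and 461 in replicate 2, a mean of 696 ± 50.8 CPM (SD, n = 2), and it ranked at place 207 of all annotated genes. Kcnk2, the stretch-sensitive TREK-1, had 2 and 1 reads, so Kcnk3 made up 99.3% (interval 97.5 to 99.9) and 99.8% (98.8 to 99.99) of the reads of the pair. The remaining tandem-pore genes, Kcnk6, Kcnk7 and Kcnk13, had between 0 and 3 reads per library.

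The voltage-gated potassium channel pores were led by 2 genes of very different kind. Kcng2 encodes a modifier subunit that does not form a channel by itself and changes the gating of other voltage-gated channels. It had 164 and 255 reads, 381 and 405 CPM, with a mean of 393 ± 16.7 CPM. Kcnh2, the pore of the rapid delayed rectifier that is known for its link to long QT syndrome, had 46 and 59 reads, 100.3 ± 9.37 CPM.

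Kcnq1 followed at 23.9 ± 2.36 CPM, while Kcne1, its auxiliary partner in the slow delayed rectifier, had 0 and 1 reads. Kcna5, the pore of an ultrarapid delayed rectifier, had 10 and 7 reads, 17.2 ± 8.58 CPM, and Kcna4 had none in either library. The Kcnd pores of the transient outward current were at the limit of this depth: Kcnd2 with 0 and 1 reads, Kcnd3 with 1 in each library. In contrast, Kcnip2, the calcium-binding auxiliary subunit that associates with Kcnd channels, had 72 and 108 reads, 167 and 171 CPM, with a mean of 169 ± 2.91 CPM. The libraries differed little for Kcnip2, and it alone held most of the 185 ± 2.63 CPM of the 7 potassium channel auxiliary genes. Kcnip3, the next of them, had 3 reads in each library.

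The inward rectifiers were led by Kcnj11, the pore of the ATP-sensitive potassium channel of the muscle membrane. It had 59 and 83 reads, 137 and 132 CPM, with a mean of 134 ± 3.79 CPM. Kcnj5 and Kcnj3 assemble into the acetylcholine-gated channel of the atria and the sinus node. Kcnj5 had 26 and 36 reads, 58.8 ± 2.32 CPM, and Kcnj3 had 16 and 17, 32.1 ± 7.21 CPM. The share of Kcnj3 in the reads of the pair was 38.1% (23.6 to 54.4) and 32.1% (19.9 to 46.3). For the classical inward rectifier, Kcnj12 had 9 and 11 reads, and the share of Kcnj2 against it was 10% (0.253 to 44.5) and 35.3% (14.2 to 61.7), intervals that overlap widely.

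Among calcium-activated channels, Kcnn1 had 10 reads in each library and Kcnn2 had 4 and 7. Among pacemaker pores, Hcn2 had 7 and 12 reads, 17.7 ± 1.97 CPM. Hcn4, which is known as the main pacemaker pore of the sinus node, had 1 and 0 reads. Kcnq1ot1, the imprinted antisense RNA within the Kcnq1 locus, had 4 reads in each library, all on its annotated single-exon transcript.

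Of the sodium channel genes described here, Scn4a, the skeletal muscle pore, had 1 and 4 reads, and Scn4b, a beta subunit, had 2 and 3. Scn7a, an atypical member of the pore family, had 2 reads in each library. All of these lay at 4 reads or fewer, near the limit that a count of 0 allows.

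Among the calcium channel genes, Cacna1c stood at 48.8 and 46.0 CPM, a mean of 47.4 ± 1.96 CPM, and the pair it forms with Cacna1d was made up of Cacna1c to 95.5% (77.2 to 99.9) and 96.7% (82.8 to 99.9). Cacna1s, the skeletal muscle L-type pore, had 7 and 5 reads, none of them matching an annotated transcript. None crossed splice junctions 1 to 16 of the 43 of Cacna1s-201. Of the T-type pores, Cacna1g had 4 reads in each library and Cacna1h 1 in each. Cacnb2, the cytoplasmic beta subunit that carries the L-type pore to the membrane, had 9 reads in replicate 1 and 37 in replicate 2, 20.9 and 58.7 CPM. Cacnb1 had 2 and 11 reads, so both beta genes were higher in replicate 2. Cacna2d1, an extracellular alpha2delta subunit, had 5 and 13 reads. Of the gamma subunits, Cacng6 had 1 and 3 reads, and Cacng7 had 1 and 0.

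Cacna2d3 appeared as the highest calcium channel gene by count, with 34 and 54 reads, 82.4 ± 4.74 CPM. Its reads did not follow its annotated exons. In replicate 1, 33 reads and in replicate 2, 52 reads fell on a single-exon model on the minus strand of chromosome 14, from 29029787 to 29031027 in replicate 1 and to 29031022 in replicate 2 (mm10). This model has 0 bases in annotated exons of Cacna2d3 and lies wholly within an exon of Lrtm1 on the opposite strand. Lrtm1 itself had 28 and 43 reads. The sources used here do not state how reads were given a strand, and the reads of these overlapping genes cannot be told apart with certainty. Without genomic models Cacna2d3 stood at 2.88 CPM, from 1 and 2 spliced reads.

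To see how far the libraries differed, each gene's reads were compared by a two-sided exact binomial test of its raw counts against the library totals. Of 8098 genes with at least 10 summed reads, 26 passed an adjusted p under 0.05 with at least a 2-fold difference, which is 0.321%. Among the 22 channel genes tested, 0 passed, and Fisher's exact test also gave 0. At an unadjusted p under 0.05 there were 2, Cacnb2 among them, against 7.15% of all genes tested. Higher levels were split evenly, with 11 genes higher in replicate 1 and 11 in replicate 2. The median log2 ratio of replicate 1 over replicate 2 was 0.01 for the channel genes and 0.01 for all genes tested.

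Cacnb2 had the lowest adjusted p of the set. Its log2 ratio was -1.43, with a ratio of levels of 0.356 (exact interval 0.151 to 0.751), and the adjusted p from the exact binomial test with Benjamini-Hochberg adjustment over all genes was 0.243. Scaled to the ERCC spike-in RNAs, which moves the median log2 ratio of all genes by -0.27, the ratio for Cacnb2 was -1.70 and its adjusted p 0.0154 in the exact test, so it then passed. Over all alternatives the adjusted p of Cacnb2 in the exact tests ran from 0.0154 to 0.464. Cacnb1 had a log2 ratio of -1.65 from 13 reads in all, with an adjusted p of 0.789 in the exact test. Libraries also differed in blood RNA: Hba-a1 and Hbb-bs were 3.95- and 3.48-fold higher in replicate 1, and whether this moves with the channel genes was not tested.

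**Figure D2:**
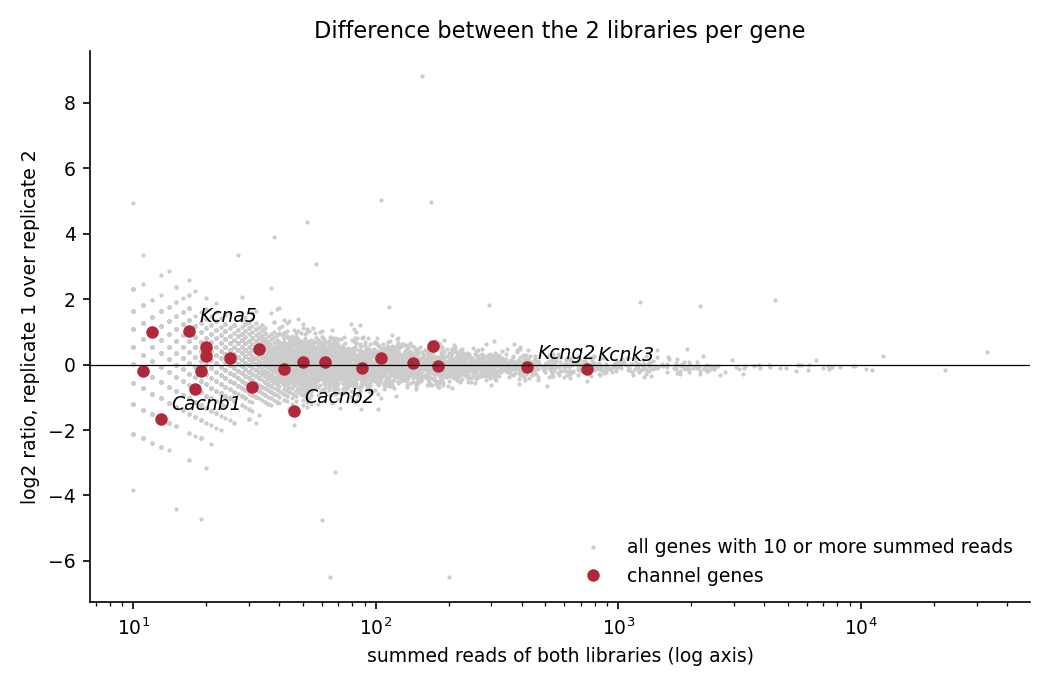
Log2 ratio of replicate 1 over replicate 2 against summed reads (log axis) for every gene with at least 10 summed reads, with the 22 channel genes in red. The channel genes scatter on both sides of 0, with Cacnb2 at -1.43 and Kcnk3 at -0.15, and none passed the test.

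The channel genes differed from the rest of the transcriptome in how their reads matched the annotation. Each read was assigned by the authors to a model with a class. Known models match a GENCODE transcript, incomplete splice matches (ISM) cover a run of its introns, NIC models recombine annotated splice sites, NNC models use at least 1 splice site that the annotation lacks, and genomic models lie on a gene but ignore its splice sites. Known transcripts held 47.3% (44.0 to 50.5) of channel reads in replicate 1 and 47.6% (44.9 to 50.2) in replicate 2, against 75.7% and 75.6% over all nuclear genes. The mean share was 9.52% against 3.62% for NNC and 14.8% against 4.65% for genomic models. Without Kcng2 the NNC share of the channel genes was 5.56%, and without Cacna2d3 their genomic share was 11.6%. For NIC models the mean share was 14.4% against 5.19%, but Kcng2 decided this direction, and without it the channel genes had 4.30%. ISM models held 17.0% of channel reads in replicate 1 against 10.8% over all genes, and 10.8% in replicate 2 against 11.0%, so their share was higher in replicate 1 alone. The genomic share itself differed between the libraries, with 11.1% (9.15 to 13.2) in replicate 1 and 18.4% (16.5 to 20.6) in replicate 2.

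The split between genomic and ISM reads rested largely on Kcnk3. Its 3′ exon was read alone by 76 reads in replicate 1 on a single ISM model, whereas in replicate 2 the same stretch was divided between an ISM model with 53 reads and an abutting genomic model with 93. Without Kcnk3 the genomic share was 16.7% ± 1.20 (SD, n = 2) and known transcripts held 37.8%. Without Kcng2 the known share was 57.6%, and without Kcnk3, Kcng2 and Cacna2d3 together it was 54.9%, below the 75.6% of all genes in each case.

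**Figure D3:**
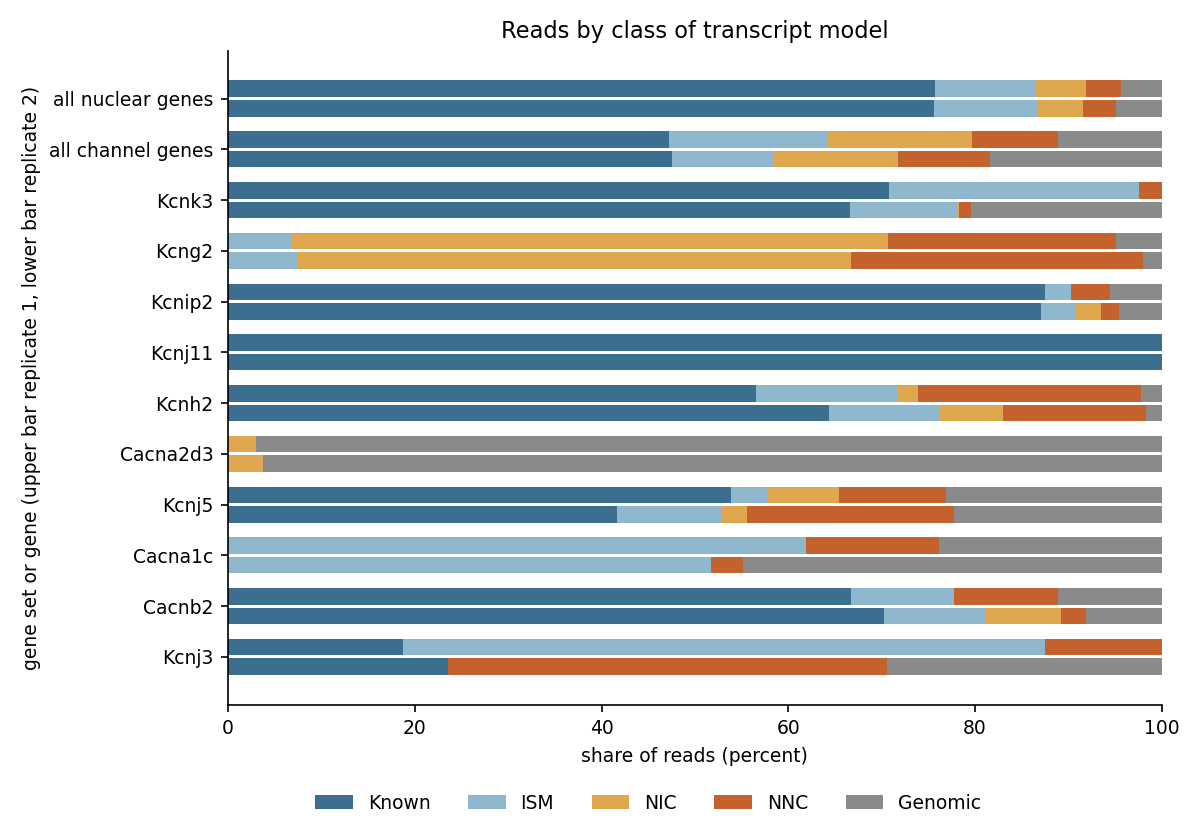
Share of reads in each class of transcript model, with replicate 1 above replicate 2, for all nuclear genes, all channel genes and 10 of the 12 highest channel genes. Known transcripts hold 47.3% and 47.6% of channel reads, with 0 in Kcng2, Cacna2d3 and Cacna1c and all of the reads in Kcnj11.

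Shares also differed with length. The class of genes with 7000 bases or more is not reported here. For the 17 channel genes whose longest annotated transcript has at least 4000 and under 7000 bases, known transcripts held 44.4% and 47.9% of reads, against 64.4% and 64.1% for all nuclear genes of that length. For the 26 under 4000 bases the shares were 55.7% and 53.3% of 688 and 1063 reads, against 80.1% and 79.7%. This class holds Kcng2, with 164 and 255 reads, and Cacna2d3, with 34 and 54, and neither had a read on a known transcript. The low share of the class thus rested in large part on these genes, and the share without them was not computed. Spliced models began within 250 bases of an annotated start for 88.9% ± 0.17 of channel reads and 92.6% ± 0.05 of all spliced reads, but known models carry the annotation's own starts. Outside known models the shares were 74.4% ± 0.67 and 61.1% ± 0.76. The channel share there rests on 306 and 425 spliced reads. Of the 164 and 255 reads of Kcng2, all but 8 and 6 on single-exon models are among them. The share without Kcng2 was not computed. Models of a single exon held 28.1% ± 0.70 of channel reads, against 9.41% ± 0.32 of all, and for Kcnj11 and Kcna5 these were annotated transcripts.

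Cacna1c, a long pore gene, was read less toward the 5′ end, but not in an even slope. Cacna1c-208, taken because it has the most exons of the coding transcripts, has 48 junctions. Its last junction was crossed by 14 reads in each library and its 5′-most junction by 0 in both. Junctions 7, 8 and 21 also had 0 in both libraries, and reads fell from 5 and 8 at junction 29 to 1 and 0 at junction 31. Junction 31 lies at the alternative exons described below, and reads that held either exon alone do not cross it. Whether the reads came from forms that lack junctions 7, 8 and 21 was not tested. The longest model held 45 exons of the 49 annotated, and 5 and 8 reads had 20 exons or more. Kcnq1 was covered nearly evenly, with 8 and 10 reads at the 5′-most of 15 junctions and 9 and 14 at the last.

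**Figure D4:**
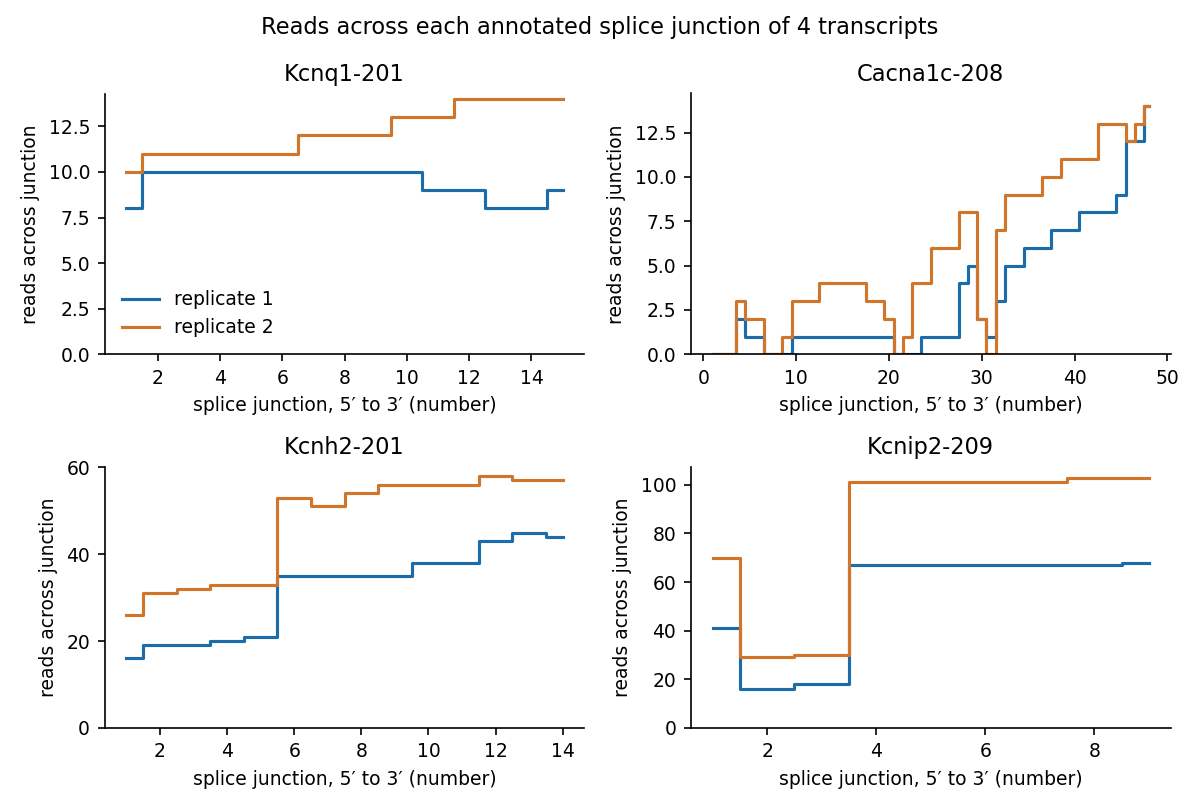
Reads across each annotated splice junction, numbered 5′ to 3′, of Kcnq1-201, Cacna1c-208, Kcnh2-201 and Kcnip2-209, with 1 line per library. Reads of Cacna1c number 0 at the 5′-most junction and 14 at the last in both libraries, with dips between, and those of Kcnq1 stay between 8 and 14 in the 2 libraries.

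Cacna1c is annotated with a pair of alternative exons of 84 coding bases each, which take the same place in different transcripts. They are shown because both were read, and they are printed with the 35 differing bases in capitals, at chr6:118638427-118638510 for Cacna1c-201 and chr6:118637730-118637813 for Cacna1c-203 (mm10, minus strand).
Cacna1c-201 exon: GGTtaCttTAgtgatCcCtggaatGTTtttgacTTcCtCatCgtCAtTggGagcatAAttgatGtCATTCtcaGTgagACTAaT
Cacna1c-203 exon: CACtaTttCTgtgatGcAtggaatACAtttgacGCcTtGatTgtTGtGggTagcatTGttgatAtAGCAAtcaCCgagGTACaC
Counted here are reads that held either exon alone between the same flanking exons, and reads with both exons were left out. Of these, the Cacna1c-201 exon was taken by 1 of 3 in replicate 1 and 2 of 9 in replicate 2. The Cacna1c-203 exon was taken by the remaining 2 and 7. Both forms were read in both libraries, and at this depth their proportion has an exact interval of 2.81 to 60.0% for the Cacna1c-201 exon in replicate 2.

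Kcnip2 was read in 3 annotated forms that differ by 2 coding exons near the 5′ end. The exons of 96 and 54 bases are shown because the coding parts of the forms differ in these exons alone. The annotated ends outside the coding part differ too, and the whole transcripts have 2302, 693 and 2395 bases for Kcnip2-202, Kcnip2-208 and Kcnip2-209. They lie at chr19:45797091-45797186 and chr19:45796279-45796332 (mm10, minus strand), and both lengths are multiples of 3.
Kcnip2 longer exon: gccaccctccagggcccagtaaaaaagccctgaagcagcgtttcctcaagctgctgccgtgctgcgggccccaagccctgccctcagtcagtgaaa
Kcnip2 shorter exon: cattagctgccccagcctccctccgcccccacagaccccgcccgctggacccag
Kcnip2-202, with the longer exon only, had 23 and 39 reads. Kcnip2-208, with neither, had 24 and 28, and Kcnip2-209, with both, had 16 and 27. From the exon before them, 62.1% (49.3 to 73.8) and 70.7% (60.7 to 79.4) of reads entered the longer exon. Of the reads that reached the exon after them, 27.3% (17.0 to 39.6) and 30.3% (21.5 to 40.4) came from the shorter exon. No form dominated in either library.

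Kcnh2 was read from 2 starts. Kcnh2-201 begins upstream and runs through 15 exons, and Kcnh2-202 begins at an internal exon and has 11, so their proteins differ at the amino end, a difference known as the 1a and 1b forms of the channel. Their first coding exons, at chr5:24351208-24351283 and chr5:24329165-24329272 (mm10, minus strand), are shown with the start codon in capitals.
Kcnh2-201: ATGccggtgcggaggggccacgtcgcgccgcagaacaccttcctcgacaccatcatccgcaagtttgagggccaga
Kcnh2-202: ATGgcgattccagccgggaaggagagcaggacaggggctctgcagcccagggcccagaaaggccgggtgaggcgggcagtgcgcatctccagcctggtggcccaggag
At the exon where the forms join, 21 and 33 reads came from the upstream exons and 13 and 18 from the internal start. The internal start thus held 38.2% (22.2 to 56.4) and 35.3% (22.4 to 49.9). Reads along Kcnh2-201 stepped from 21 and 33 at that junction to 35 and 53 at the next. On whole transcripts, Kcnh2-201 had 10 and 21 reads and Kcnh2-202 12 and 16.

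**Figure D5:**
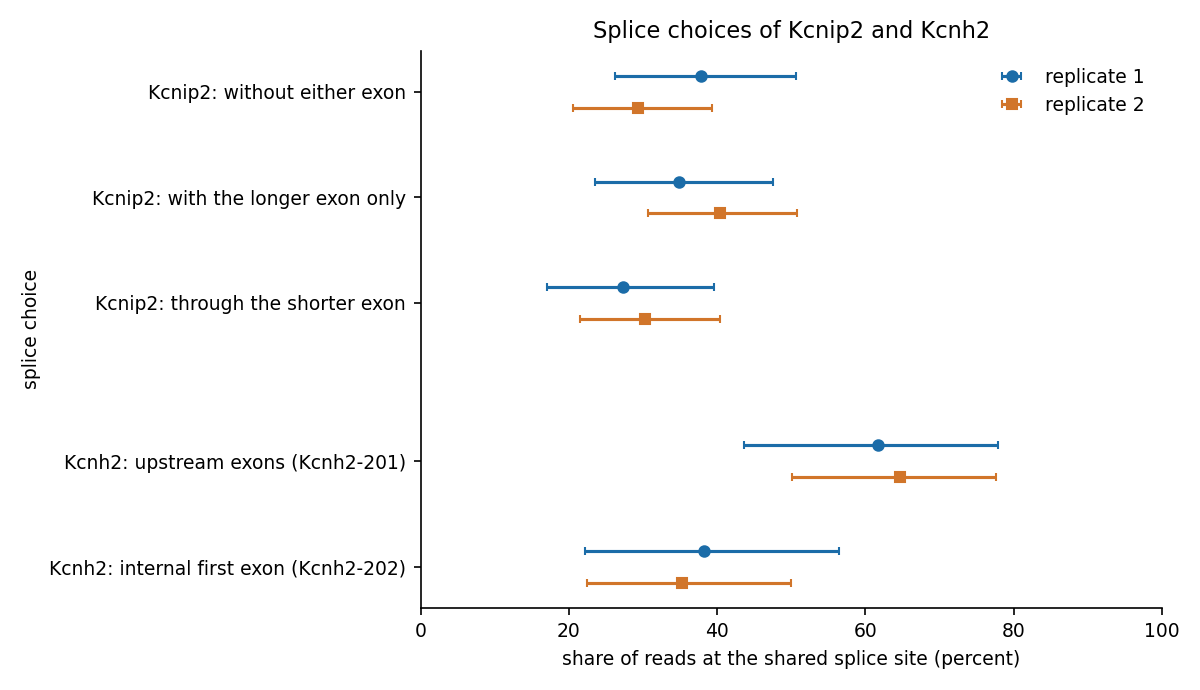
Share of reads taking each path at a shared splice site of Kcnip2 and Kcnh2, with exact 95% intervals, circles for replicate 1 and squares for replicate 2. The intervals of the libraries overlap for each path shown, with the internal start of Kcnh2 at 38.2% and 35.3%.

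Isoform use was compared between the libraries for genes with enough reads on at least 2 known transcripts. Of 550 genes tested, 1 was called, which is 0.182%, and 25, or 4.55%, had an unadjusted p under 0.05. The channel genes tested were Kcnip2, Kcnh2 and Kcnj11, with 0 called and 0 under an unadjusted p of 0.05. The permutation p was 0.566 for Kcnip2, and Fisher's exact p was 0.432 for Kcnh2 and 0.741 for Kcnj11, each with an adjusted p of 1. The largest change of share was 11.3 percentage points in Kcnh2 and 2.52 in Kcnj11, whose single-exon Kcnj11-205 had 53 and 77 reads and the spliced Kcnj11-201 had 5 in each library.

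Kcng2 had no read on a known transcript. Its leading chain, a 3-exon NIC model built from annotated introns alone, had 79 and 115 reads, 50.6% and 46.2% of its spliced reads. A 4-exon NNC chain with 2 unannotated introns followed with 35 and 61 reads, and a 5-exon NIC chain with 14 and 16. The last junction of Kcng2-201 was crossed by 154 and 246 of the 164 and 255 reads of Kcng2, and the first by 0. Most reads thus shared the last junction of Kcng2-201, and none held its first. At the acceptor of the next-to-last exon of Kcng2-201, 54.1% (45.7 to 62.4) and 49.8% (43.2 to 56.4) of reads came from the intron of Kcng2-202, and 28.1% (20.97 to 36.1) and 31.6% (25.7 to 38.0) from an intron that the annotation lacks.

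Across all channel genes there were 96 intron chains of the NIC or NNC class, 30 of them read in both libraries. Of these, 15 chains in 7 genes had at least 5 summed reads, with 182 and 257 reads in all. Kcng2 held 7 of them. Single chains were read for Cacna1s with 4 reads in each library on a 29-exon chain, Kcnh2 with 5 and 4, Kcnj3 with 1 and 7, Kcnk3 with 5 and 2, and Kcnn1 with 3 in each.

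Other genes were read on few forms. All known-transcript reads of Cacnb2, 6 and 26, fell on Cacnb2-214, whose first coding exon lies at chr2:14824256-14824306 (mm10, plus strand) and is shown because beta subunit forms differ at the amino end, with the start codon in capitals.
Cacnb2-214: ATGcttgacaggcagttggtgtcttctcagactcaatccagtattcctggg
Kcnq1-201 had 6 and 10, and Hcn2-202 had 4 and 7. Kcnj5-202 had 12 and 11 reads and Kcnj5-201 had 2 and 4.

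Other genes of membrane excitation were read beside the channel genes. They form a list of 38 pumps, exchangers, gap junction proteins, channel partners, transcription factors and channels outside the set, Kcnj8 included. Of these, 35 had a read and 29 were tested, with 16 higher in replicate 1 and 13 in replicate 2. By the exact binomial test 0 were called, and 3 had an unadjusted p under 0.05. The 8 highest included Casq2, the calcium buffer of the sarcoplasmic reticulum, at 1122 ± 44.0 CPM (SD, n = 2), and Gja1, the main ventricular gap junction protein, at 913 ± 20.4. Atp1b1, the beta subunit of the sodium pump, stood at 302 ± 2.40 CPM. Rrad and Calm3 were also among the 8. Kcnk3 thus ranked below Casq2 and Gja1 and above Atp1b1. Dpp6 and Dpp10, which encode auxiliary subunits of Kcnd channels, and Caln1 had 0 reads in both libraries.

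Markers of the cell types that share channels with the myocyte were read for the same libraries. Cardiomyocyte markers were present for 6 of 6 genes, at 31689 to 40646 CPM in sum. Most of that sum was Myh6, at 36490 CPM in replicate 1 and 27652 in replicate 2. Of 8 neuronal markers 2 had a read, between 6.35 and 11.6 CPM in sum, and Snap25, Syt1 and Tubb3 were at 0. Of 7 conduction system markers, which include the channel genes Hcn4 and Cacna1g, 6 had a read, at 28.6 to 30.2 CPM in sum, with Shox2 at 0. Of 6 skeletal muscle markers, 3 had a read, with Myh1, Myh4 and Tnnt3 at 0, and the list summed to 7537 to 7851 CPM. Nearly all of that sum was Ckm, the muscle creatine kinase that heart muscle also expresses, at 7519 and 7836 CPM, and the channel genes Cacna1s and Scn4a made up the rest. All 5 atrial markers were read, at 3293 to 3388 CPM in sum, and all 3 ventricular markers, at 15063 to 16139 CPM. The part of each cell type or chamber in the level of a channel gene was not tested.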

How the data were processed

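The authors deposited, per the file headers, 1 table per library of read counts per transcript model, whole numbers without normalization, with model classes and lengths, and annotation files naming TALON; reads were aligned to mm10 and compared with GENCODE M21, per the deposited text files. The aligner and versions are not given in the sources used here. Counts of all classes were summed per gene and scaled to reads of annotated nuclear genes, leaving out spike-in and mitochondrial reads. Libraries were compared with exact binomial tests and Benjamini-Hochberg adjustment over all genes, and log2 ratios used a pseudocount of 0.5 reads (Python 3.11.15, numpy 2.4.6, scipy 1.17.1, pandas 2.3.3). The gene test and the isoform test were tested on simulated data. Introns of models were read from the deposited annotation files, and sequences from GENCODE M21 transcripts. Edges of a model are the authors', not those of single reads.

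The members, lists and tests were chosen with earlier results of these data known. Named genes are the 25 highest members, the 2 highest of each family, the markers, set pairs, the 8 highest partners, and members with unannotated chains read in both libraries. The alternative exons of Cacna1c, the length classes and other genes named at low counts were chosen after their values were seen. Alternatives covered model classes, denominators, minimum reads, fold, test, pseudocount and single libraries. Some genes that the rule names are not reported here.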

Additional observations from a re-analysis of the deposited data

Results flagged for a closer look

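Reads opposite to channel genes lay outside the comparisons above and exceeded the 3 reads that a count of 0 allows in both libraries at 4 genes. Loci that the authors classed as antisense had 28 reads in replicate 1 and 46 in replicate 2 opposite Kcnk3, the tandem-pore channel gene with the highest level. They had 11 reads in each library opposite Cacna1c, the L-type pore, spread over 9 loci in each library with at most 3 reads in replicate 1 and 2 in replicate 2, so that no single locus exceeded the limit. Opposite Cacnb2, a beta subunit, they had 5 and 8 reads over 3 loci in each library, with at most 3 and 4 at one locus. Opposite Kcnd3, a transient outward pore that itself had 1 read in each library, they had 8 and 5, of which 7 and 5 lay at one locus. Opposite Kcnk3 a single locus held all of the reads in each library. The sources used here do not state how reads were given a strand, and these reads and those of the genes on the other strand cannot be told apart with certainty.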

How the results depend on the processing

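With known transcripts alone, 33 channel genes were read, their summed level was 1395 CPM, 15 genes of all were called between the libraries, and the share of Cacna1c against Cacna1d fell to 0%, because Cacna1c had no read on a known transcript. With a minimum of 10 summed reads, 22 genes were read. The summed level was 1988 CPM without genomic models, 2140 CPM over all mouse reads and 1765 CPM without single-exon models. The known share was 55.7% without genomic models and 54.9% without Kcnk3, Kcng2 and Cacna2d3, and 89.2% of spliced reads began within 500 bases of an annotated start. ERCC scaling called 70 genes of all and 1 channel gene, Cacnb2. Kcnk3 then had an adjusted p of 0.00518 in the exact binomial test, but its log2 ratio of -0.415 missed the 2-fold minimum. The other 9 settings of the gene test called 0 channel genes, as did the 3 of the isoform test. The alternatives without single-exon models and without the 3 named genes were chosen after seeing the data. Replicate 2 alone gave 49 channel genes and replicate 1 alone 46. Depth limits the test: 34 of 56 channel genes had too few reads for the test, and a gene with 0 reads may hold up to 3.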
